A study of Mus musculus with 12 samples.

Results

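The Kruppel-like factors Klf2, Klf3, Klf4, Klf5, Klf6, Klf7, Klf9, Klf10, Klf13 and Klf15 were examined in the mouse myoblast line C2C12, whose cells can fuse into myotubes. The 10 genes were taken by name as a family, by a rule that uses no measured value, with earlier results of these arrays known. They were found through the RefSeq accession of each probe, and 24200 genes were tested in all. Each of the 10 genes had 1 probe, and all 10 passed the filter on dim probes. RNA collected 72 h after transfection was hybridised to 12 Agilent arrays, labelled in 1 colour. The labels name 4 transfections with 3 arrays each: a negative control, the plasmid pcDNA3.1, pcDNA3.1-MEG3, and siRNA. All 4 groups are the same line in the same growth medium with serum. In the titles, the pcDNA3.1-MEG3 arrays are an overexpression and the siRNA arrays a knockdown of the long non-coding RNA MEG3. The titles call the pcDNA3.1 arrays pat1, a name they do not explain. The sources used here do not say what the negative control contained or whether pcDNA3.1 held an insert.

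Kruppel-like factors are zinc finger proteins that bind GC-rich and CACCC sequences in promoters and enhancers. Some members mainly activate transcription, whereas Klf3 recruits the corepressor CtBP and Klf9, Klf10 and Klf13 recruit Sin3a with histone deacetylases. In muscle cells, Klf2 and Klf4 act downstream of the kinase ERK5 in myoblast fusion, Klf5 takes part in myogenic differentiation, and Klf15 responds to glucocorticoids and controls amino acid and lipid use.

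The promoters of the genes whose levels separated the groups are shown first, because Klf proteins bind such sequences themselves and because Klf2 is known to be driven by MEF2 factors. Promoters from RefSeq (GRCm38.p6) run from 250 bases before to 50 bases after the annotated start. The table held 8 of the 10 members, and Klf5 and Klf10 had no entry. Capitals mark CACCC on either strand (GGGTG when it lies on the opposite strand) and matches to the MEF2 site.
Klf2 promoter, chr8:72318812-72319111, plus strand: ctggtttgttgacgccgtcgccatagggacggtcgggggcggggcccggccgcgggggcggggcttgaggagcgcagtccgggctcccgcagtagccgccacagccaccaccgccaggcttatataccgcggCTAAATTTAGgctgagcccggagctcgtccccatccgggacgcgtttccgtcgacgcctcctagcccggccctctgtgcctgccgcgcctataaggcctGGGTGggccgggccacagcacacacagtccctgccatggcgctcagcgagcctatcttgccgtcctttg
Klf4 promoter, chr4:55532426-55532725, minus strand: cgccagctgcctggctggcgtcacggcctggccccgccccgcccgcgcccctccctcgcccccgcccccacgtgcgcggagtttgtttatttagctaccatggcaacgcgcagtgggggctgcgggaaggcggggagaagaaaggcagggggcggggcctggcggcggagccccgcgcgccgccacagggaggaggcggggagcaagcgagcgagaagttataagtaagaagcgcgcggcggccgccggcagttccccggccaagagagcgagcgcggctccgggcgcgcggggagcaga
Klf15 promoter, chr6:90462326-90462625, plus strand: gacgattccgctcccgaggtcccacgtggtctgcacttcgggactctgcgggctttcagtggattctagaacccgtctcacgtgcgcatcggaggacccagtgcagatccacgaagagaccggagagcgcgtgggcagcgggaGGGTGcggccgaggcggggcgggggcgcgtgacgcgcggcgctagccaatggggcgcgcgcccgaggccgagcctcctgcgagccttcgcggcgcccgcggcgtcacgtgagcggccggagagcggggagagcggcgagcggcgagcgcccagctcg
The Klf2 window held 1 match to the MEF2 site, a motif found in 1.86% of 32851 promoters of the same length. The Klf4 window and the Klf15 window held 0 matches to it, and so did those of the other 5 members in the table. CACCC occurred once each in the Klf2 and Klf15 windows and 0 times in that of Klf4, against 57.5% of all promoters with at least 1 match. The GC box, GGGCGG on either strand, occurred 2 times in Klf2, 4 times in Klf4 and 1 time in Klf15, and 35.7% of all promoters held it. The E-box, CANNTG, occurred 0 times in Klf2, 2 times in Klf4 and 3 times in Klf15, and 72.3% of all promoters held it. The other 5 members in the table held CACCC 0 to 5 times, the GC box 0 to 6 times and the E-box 0 to 2 times. The longest run of capitals in the Klf2 sequence is the MEF2 match. These matches describe letters only. No binding was measured.

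Values below are log2 signals minus the 75th percentile of the same array, so that 0 is the level of the probe at that percentile. Signals of different probes are not on 1 scale, and only values of the same gene are compared. Replicates 1 and 3 of the pcDNA3.1, pcDNA3.1-MEG3 and siRNA groups shared a slide position and differed by 0.266 to 0.369 times the noise between spots, and were averaged as 2 scans of 1 hybridisation. Replicates 1 and 3 of the negative control differed by 0.942 times that noise while replicate 2 differed from them by 4.26 to 4.60 times, and were averaged too. Each group thus had n = 2 samples, and the labels name no separate cultures, so the spread behind the p-values may be technical. Replicate 2 lay near the noise between spots in the other groups too. Against replicate 1 the ratio was 1.06 on pcDNA3.1, 0.960 on pcDNA3.1-MEG3 and 1.13 on siRNA. It was kept as a separate sample in each. Only in the negative control did the 2 samples of a group differ by clearly more than that noise. An alternative below averages the plasmid samples of a group, but none averages the 2 siRNA samples. Negative control, plasmid and siRNA arrays lay on separate slides. Slide and group cannot be told apart except between the plasmid groups. The 75th percentile of the signal was 2266 on negative control replicate 2 and 1168 to 1601 on the other 11 arrays. Fewest probes were well above background on the siRNA arrays (61.7% to 68.4%). Meg3 went against the plasmid labels. Probe A_51_P455997, the brightest of its probes, passed the flag for signal well above background on 3 of 3 pcDNA3.1 arrays (-2.48 to -2.38), on 0 of 3 labelled pcDNA3.1-MEG3 (-7.93 to -6.58), on 1 of 3 negative control arrays and on 0 of 3 siRNA arrays. Directions between the plasmid groups therefore hold for the arrays as labelled, and the knockdown of Meg3 could not be checked.

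Of 6 myoblast markers, 6 were well above background on every negative control array, and so were 5 of 5 fibroblast and 4 of 5 adipocyte markers, so that these flags do not single out myoblasts. The endothelial list had 2 to 4 of 5 markers above background per array (summed level 0.895 to 1.36, the 75th percentile signal being 1), with Pecam1 and Kdr on all 12 arrays and Tie1 on none. The epithelial list had 1 to 2 of 5 (0.434 to 0.759), with Krt14 on all 12 and Epcam, Cdh1 and Krt18 on none. The myogenic factor Myf5 was above background on 1 of 3 pcDNA3.1 arrays and 0 of 3 labelled pcDNA3.1-MEG3. It was lower than on the negative control on pcDNA3.1 (-4.40, adjusted p = 0.00176) and on siRNA (-2.86, adjusted p = 0.00696). The 5 myoblast markers that could be summed on every array reached 3.4 to 3.62 on siRNA against 1.15 to 1.77 on all others. That sum leaves out Vcam1, whose log2 group means were 4.22 on the negative control and 4.53 on siRNA (difference 0.31, limma adjusted p = 0.424). Of all 6 myoblast markers, 2 were called higher and 1 lower on siRNA than on the negative control. The median log2 difference of the 6 was 0.05, against 0.06 over all genes. The myotube markers separated the groups: 6 of 7 could be summed on every array, and their sum was 17.4 to 18.4 on siRNA arrays against 0.633 to 1.30 on all others. All 7 were higher on siRNA than on negative control arrays (limma adjusted p under 0.05, median log2 difference 3.99). In bulk RNA, a change in the share of cells of a type and a change of RNA per cell cannot be told apart. The summed macrophage markers ranged from 0.342 to 0.483 outside the siRNA group and from 0.608 to 0.639 in it, while 1 of the 4 was higher there than on the negative control (Csf1r, 0.81) and 1 lower (Lyz2, -1.47), with a median of -0.31. The part of these markers in the results below was not tested.

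In the comparison of siRNA with the negative control, Klf2 and Klf5 were higher and Klf15 was lower on the siRNA arrays. The other 7 members did not pass. Klf2 rose 2.99-fold, Klf5 rose 3.87-fold and Klf15 fell by 1.002 on the log2 scale. Of all genes, 7.95% were higher and 4.77% lower in that comparison, and the members' median difference was 0.22 against 0.06 over all genes tested. The group means of Klf5 spanned 1.95 over the 4 groups, those of Klf2 1.58 and those of Klf15 1.15, and the other 7 members spanned 0.44 to 0.77. Over all genes tested the median span was 0.85 and the 90th percentile 1.99.

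**Figure D1:**
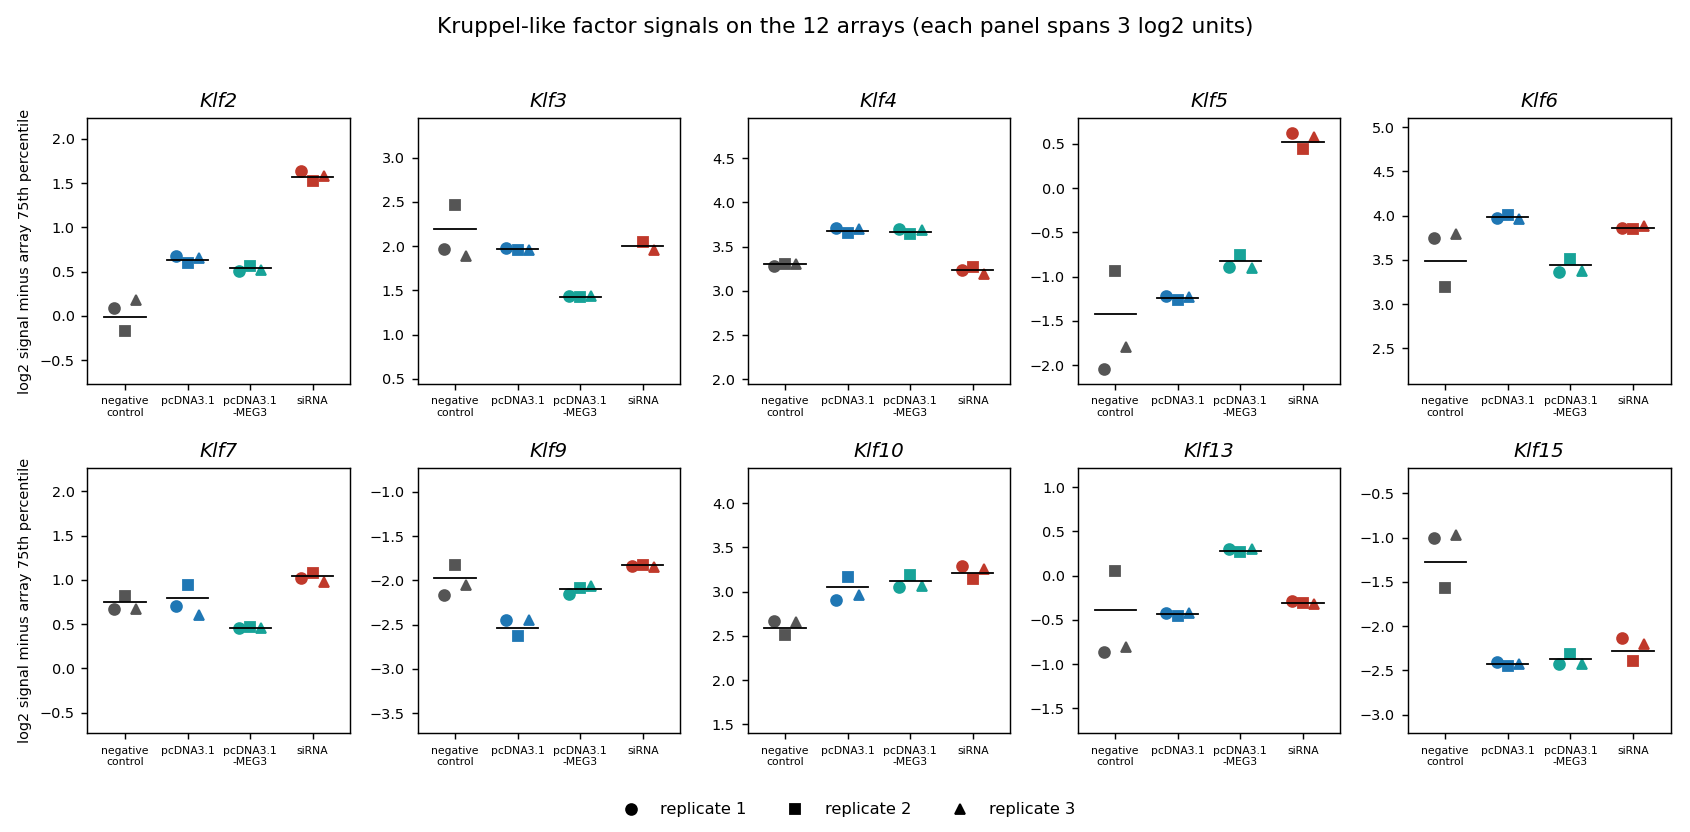
Log2 signal minus the array's 75th percentile (y axis) of the 10 Kruppel-like factors on the 12 arrays, by group (x axis). Symbols are replicates 1, 2 and 3, the bar is the mean of the 2 samples of a group, and each panel spans 3 log2 units; Klf2 is lowest on the negative control (-0.17 to 0.18) and highest on siRNA (1.52 to 1.63), while Klf15 is high on the negative control arrays alone (-1.57 to -0.97).

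Klf2, an activator known from lung, endothelium and lymphocytes, read 0.09, -0.17 and 0.18 on negative control replicates 1, 2 and 3. It read 0.67, 0.59 and 0.65 on the pcDNA3.1 arrays and 0.50, 0.56 and 0.52 on those labelled pcDNA3.1-MEG3. The siRNA arrays read 1.63, 1.52 and 1.58. No array of one group overlapped another group, in the order negative control, pcDNA3.1-MEG3, pcDNA3.1, siRNA, although the step between the plasmid groups was only 0.09. The share of all genes without overlap was not counted, for Klf2 or for the members below. Replicates 1 and 3 of the plasmid and siRNA groups are scans of 1 hybridisation, which makes a lack of overlap easier to reach. Klf2 was 1.58 higher on siRNA than on negative control arrays (SE 0.15, 95% interval 1.21 to 1.96, limma adjusted p = 0.00383). It was also 0.98 higher than on both plasmid groups together (SE 0.13, adjusted p = 0.00690), and 0.65 higher on pcDNA3.1 than on negative control arrays (SE 0.15, adjusted p = 0.0389). Between the plasmid groups it differed by -0.09 (interval -0.47 to 0.28, adjusted p = 0.832). The negative control entered the siRNA and the pcDNA3.1 comparisons alike. With only the compared groups in the fit, the siRNA difference from the negative control had an adjusted p of 0.104. Under median centring the difference of pcDNA3.1 from the negative control was 0.20 (adjusted p = 0.391), and with the replicate number as a block its adjusted p was 0.0631. With no filter on dim probes it was 0.0694, and with only the compared groups in the fit 0.11. The difference also did not pass without either sample of pcDNA3.1 (0.202 and 0.145) or of pcDNA3.1-MEG3 (0.0992).

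Klf5, an activator with roles in smooth muscle and intestinal epithelium, read -2.05, -0.93 and -1.79 on the negative control arrays. Its values were -1.22, -1.27 and -1.24 on pcDNA3.1 and -0.90, -0.76 and -0.90 on pcDNA3.1-MEG3 arrays. On the siRNA arrays it read 0.63, 0.45 and 0.58. All siRNA arrays stood above all others, and negative control replicate 2 lay between the pcDNA3.1 and the pcDNA3.1-MEG3 arrays. The difference of siRNA from the negative control was 1.95 (SE 0.32, interval 1.17 to 2.73, adjusted p = 0.0184), and from both plasmid groups 1.56 (SE 0.28, adjusted p = 0.0154). Without the 2 negative control replicates 1 and 3 the difference from the negative control was 1.46, and without replicate 2 it was 2.45. With only the compared groups in the fit its adjusted p was 0.166. Without a sample of pcDNA3.1-MEG3, which enters only through the shared spread, it was 0.0557. The difference from both plasmid groups had an adjusted p of 0.0543 to 0.0639 without any 1 plasmid sample.

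Klf4, a factor that holds fibroblasts and epithelia out of the cell cycle and is one of the reprogramming factors, showed a different split. It read 3.28, 3.31 and 3.30 on negative control arrays and 3.23, 3.27 and 3.19 on siRNA arrays. On the plasmid arrays it read 3.71, 3.65 and 3.70 for pcDNA3.1 and 3.70, 3.65 and 3.69 for pcDNA3.1-MEG3. Both plasmid groups lay above the other 2 with no overlap. Klf4 was 0.43 lower on siRNA than on the plasmid arrays (log2 difference -0.43, SE 0.11, interval -0.70 to -0.17, adjusted p = 0.0412), a 1.35-fold difference. It was 0.38 higher on pcDNA3.1 than on negative control arrays (SE 0.12, adjusted p = 0.0847) and -0.06 between siRNA and the negative control (adjusted p = 0.808), neither of which passed. Median centring reduced the difference from the plasmids to -0.20 (adjusted p = 0.272). The call was also lost with the replicate block (adjusted p = 0.0801) and with no filter on dim probes (0.0862), and leaving out any 1 siRNA or plasmid sample gave adjusted p of 0.113 to 0.166.

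Klf15, induced by glucocorticoids and linked to branched-chain amino acid breakdown, read -1.001, -1.57 and -0.97 on the negative control arrays. On the pcDNA3.1 arrays it read -2.41, -2.45 and -2.43, and on the pcDNA3.1-MEG3 arrays -2.43, -2.32 and -2.42. The siRNA arrays read -2.14, -2.39 and -2.21. All 9 arrays of the transfected groups other than the negative control lay below its 3 arrays. Klf15 was lower on siRNA than on negative control arrays (-1.002, SE 0.22, interval -1.54 to -0.46, adjusted p = 0.0394) and on pcDNA3.1 than on negative control arrays (-1.15, SE 0.22, interval -1.69 to -0.61, adjusted p = 0.0225). Both differences use the same control samples. Between siRNA and both plasmid groups the difference was 0.12 (interval -0.35 to 0.59, adjusted p = 0.657). With only the compared groups in the fit, the siRNA difference from the negative control had an adjusted p of 0.236. It also did not pass with the replicate block (adjusted p = 0.0597), with quantile normalisation (0.0515), with normexp background correction (0.0567) or with no filter on dim probes (0.0650). It passed with all samples and without either negative control sample, and had adjusted p of 0.0700 to 0.0983 without any 1 of the other samples. The pcDNA3.1 difference had 0.0617 to 0.127 without any 1 plasmid sample.

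**Figure D2:**
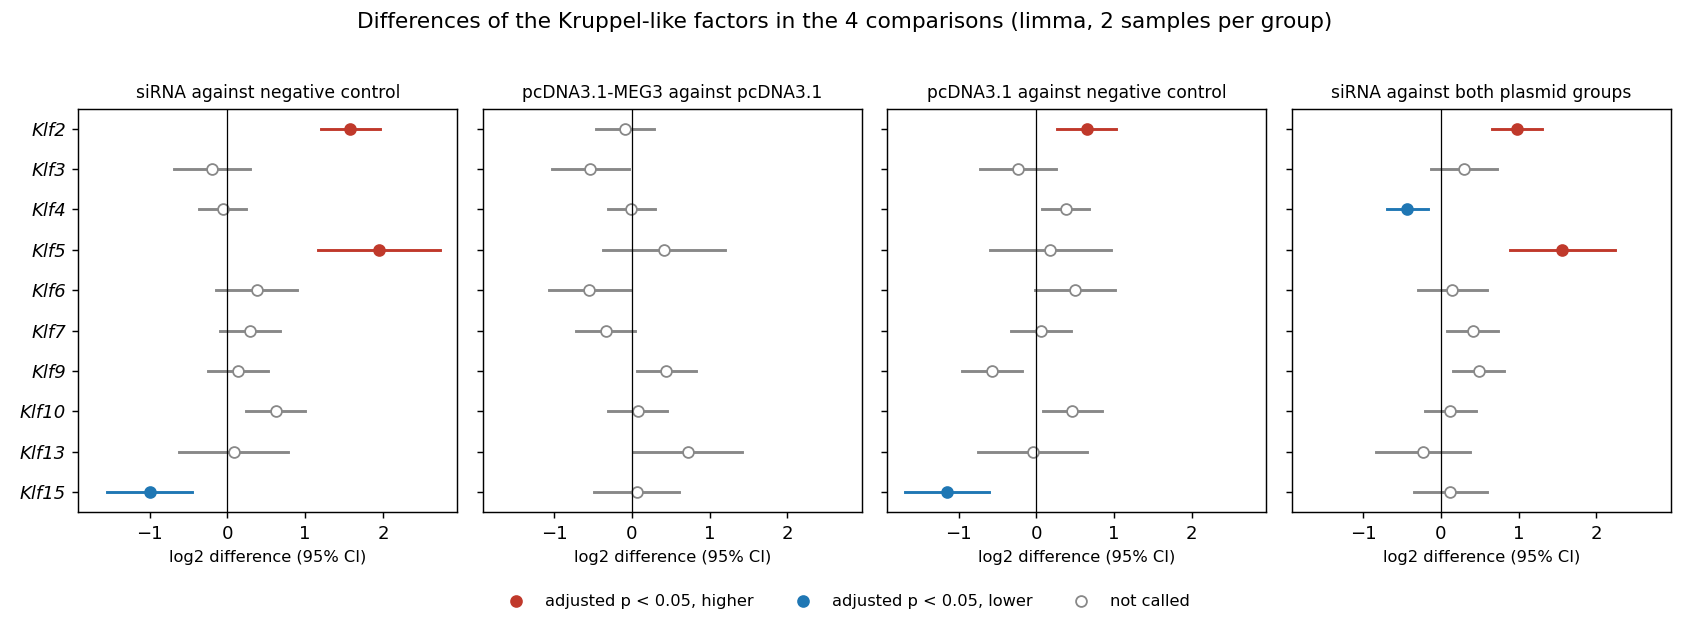
Log2 differences (x axis) of the 10 members (y axis) in the 4 comparisons, with limma's 95% confidence intervals. Filled red points are higher and filled blue points lower at an adjusted p under 0.05, and open points did not pass; Klf2 is called in 3 comparisons, and 0 members are called between the plasmid groups.

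The remaining activators, Klf6 and Klf7, did not pass in any comparison as reported. Klf6, an early gene of injury and growth factor responses, ranged from 3.20 to 3.80 on negative control arrays, from 3.96 to 4.004 on pcDNA3.1, from 3.37 to 3.51 on pcDNA3.1-MEG3 and from 3.85 to 3.89 on siRNA. The arrays labelled pcDNA3.1-MEG3 lay below those labelled pcDNA3.1 (-0.55, SE 0.21, adjusted p = 0.473). Klf7, best known from neurons, ranged from 0.67 to 0.82, 0.60 to 0.95, 0.46 to 0.46 and 0.98 to 1.08 in the same order of groups. It was highest on the siRNA arrays, 0.29 above the negative control (adjusted p = 0.281) and 0.41 above the plasmids (adjusted p = 0.0879). Under median centring Klf7 passed for siRNA against the plasmids.

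The repressors also did not pass as reported. Klf3, which recruits CtBP, read 1.96, 2.47 and 1.89 on the negative control and 1.96 to 1.98 on pcDNA3.1 arrays. On pcDNA3.1-MEG3 arrays it read 1.42 to 1.44, below every other array. On siRNA replicates 2 and 3 it read 2.04 and 1.95. The spot on siRNA replicate 1 was marked as an outlier, so that sample rests on replicate 3. Klf9, a glucocorticoid and thyroid hormone target, was lowest on pcDNA3.1 arrays (-2.63 to -2.45), against -2.17 to -1.83 on the negative control, -2.15 to -2.06 on pcDNA3.1-MEG3 and -1.85 to -1.82 on siRNA. Under median centring, quantile normalisation and the deposited series values, Klf9 passed for pcDNA3.1 against the negative control and for siRNA against the plasmids. Klf10, first found as a TGF-beta early response gene, read 2.67, 2.51 and 2.66 on negative control arrays, below the other 9 arrays (2.91 to 3.29). Its difference of siRNA from the negative control, 0.62 (SE 0.15, interval 0.24 to 1.002), had an adjusted p of 0.0536. That difference passed in 6 of 19 alternatives, with adjusted p from 2.44e-05 to 0.278 over them. Klf13, known from T cells and heart development, spread most on the negative control arrays (-0.86, 0.06 and -0.81). The arrays labelled pcDNA3.1-MEG3 read 0.26 to 0.30 and those labelled pcDNA3.1 -0.46 to -0.42, with no overlap.

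When arrays labelled pcDNA3.1-MEG3 were set against those labelled pcDNA3.1, 0 of 10 members passed by limma, and 4 had an unadjusted p under 0.05. Klf13 was 0.72 higher (SE 0.29, adjusted p = 0.482) and Klf9 0.44 higher (SE 0.16, adjusted p = 0.440). Klf3 was 0.53 lower (log2 difference -0.53, SE 0.20, adjusted p = 0.458), and Klf6 differed by -0.55. Of all genes, 0% were called higher and 0.00826% (2 of 24200) lower. An unadjusted p under 0.05 was seen for 2484 genes. This was the comparison that lay within 1 slide. Within its first scan, Klf3 (-0.54, adjusted p = 0.0376) and Klf13 (0.72, adjusted p = 0.0261) passed, where 7.29% of all genes did. With the 6 plasmid arrays as separate samples and the scan as a block, Klf3, Klf5, Klf6, Klf9 and Klf13 passed, and so did 45.2% of all genes, although replicates 1 and 3 are 2 scans of 1 hybridisation there.

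Between pcDNA3.1 and the negative control, Klf2 was higher and Klf15 lower, and the other 8 members did not pass. Of all genes, 11.4% were higher and 6.64% lower. The members' median was 0.12 against 0.22 over all genes. The share of higher calls in that comparison depended on the scaling: 63.2% of called genes were higher as reported and 19.9% under median centring, which put the median of all genes at -0.23 in place of 0.22. Quantile normalisation gave 47.4%, the deposited series values 47.0%, and leaving out 1 sample 39.3% (without pcDNA3.1 replicates 1 and 3) to 75.2% (without a siRNA sample). Klf9 (-0.57, adjusted p = 0.0563), Klf4 and Klf10 (0.46, adjusted p = 0.0903) had unadjusted p under 0.05. With Klf2 and Klf15 these were 5 of 10 members, beside 8676 of 24200 genes. Against both plasmid groups, siRNA arrays had Klf2 and Klf5 higher and Klf4 lower, where 10.7% of all genes were higher and 8.22% lower. The median of the members was 0.23 and that of all genes -0.11. Klf9 (0.49, adjusted p = 0.0571) and Klf7 came next. In this comparison, 56.5% of called genes were higher, against 78.4% under median centring, 68.7% with quantile normalisation and 67.3% with normexp. The majority turned without a siRNA sample (34.3% and 34.4%) and with 12 arrays as 12 samples (44.4%). For siRNA against the negative control the share was 62.5% as reported, 41.2% under median centring and 44.5% without siRNA replicates 1 and 3.

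With each plasmid group averaged to 1 sample, 0 members passed in any comparison. By limma, 162 genes then passed for siRNA against the negative control, 2 for pcDNA3.1 against it and 200 for siRNA against the plasmids.

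**Figure D3:**
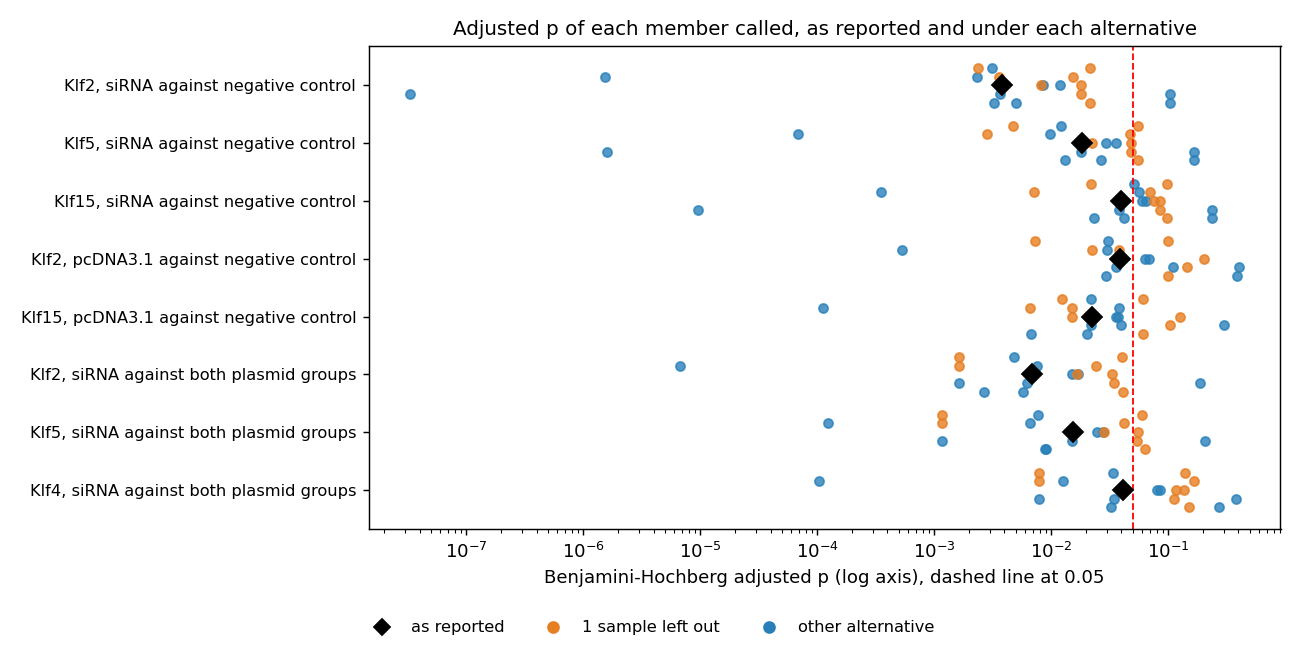
Benjamini-Hochberg adjusted p (log x axis) of each call (y axis), as reported (black diamonds) and under each alternative (orange, 1 sample left out; blue, others), with a dashed line at 0.05. For siRNA against the negative control Klf2 lies under the line in 17 of 19 alternatives and Klf15 in 7 of 19, for pcDNA3.1 against it Klf2 in 9 of 18 and Klf15 in 13 of 18, and Klf4 against the plasmids in 8 of 18.

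Genes that act with or around these factors were also read. Of 7 other Klf genes with a probe, 6 were tested. The counts that follow stand beside the shares of all genes given above: 7.95% higher and 4.77% lower for siRNA against the negative control, 11.4% and 6.64% for pcDNA3.1 against it, and 10.7% and 8.22% for siRNA against the plasmids. By limma, 0 of the 6 other Klf genes passed for siRNA against the negative control, and 0 had an unadjusted p under 0.05. Of all 24200 genes, 7025 had an unadjusted p under 0.05 in that comparison. The unadjusted counts of the lists below for that comparison stand beside this number. Klf1, an erythroid factor, was the 1 called against the plasmids (-0.93, adjusted p = 0.0103). It did not pass under normexp (-0.14, adjusted p = 0.657) or without pcDNA3.1-MEG3 replicate 2 (0.0540). Of the 8 tested Sp factors, relatives with the same type of zinc fingers, Sp3 fell on siRNA arrays (-0.99, SE 0.14, adjusted p = 0.0116). Sp3 fell further on pcDNA3.1 arrays (-2.93, adjusted p = 3.71e-04), and was 1.98 higher on siRNA than on the plasmids (adjusted p = 5.15e-04). Its samples read -0.76 and -0.66 on the negative control, -3.71 and -3.55 on pcDNA3.1, -3.74 and -3.69 on pcDNA3.1-MEG3, and -1.65 and -1.74 on siRNA. Sp6 was 0.93 lower on pcDNA3.1 (-0.93, adjusted p = 0.0495) and 1.06 higher on siRNA than on the plasmids (adjusted p = 0.0219), and Sp8 was lower there (-1.31, adjusted p = 0.0235). Each of these Sp6 and Sp8 calls was lost in 4 to 6 of the 8 fits that left out 1 sample (plasmid or siRNA samples, and negative control replicate 2 for Sp6), and those of Sp3 in none. The Sp6 call on pcDNA3.1 was also lost with the replicate block (adjusted p = 0.0823), with no filter on dim probes (0.0734) and with only the compared groups in the fit (0.0678).

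Of the 6 genes of the ERK5 and MEF2 arm, 1 rose and 1 fell on siRNA arrays against the negative control. Npnt, whose product nephronectin acts in fusion below Klf2 and Klf4, rose by 1.09 (SE 0.13, adjusted p = 0.00798), reading -3.56 and -3.50 in the negative control samples and -2.39 and -2.49 in the siRNA samples. Mef2a, a MEF2 factor, fell by 0.79 (-0.79, adjusted p = 0.0204), and was also lower on pcDNA3.1 (-1.03, adjusted p = 0.00842). Mapk7, the gene of ERK5, differed by 0.06 and did not pass (adjusted p = 0.912). The list's median was 0.13. Without a plasmid sample or the siRNA sample of replicates 1 and 3, the call of Mef2a for siRNA was lost (adjusted p of up to 0.0711), and without a pcDNA3.1 sample that for pcDNA3.1 was lost (up to 0.0709). Npnt was also 0.83 higher on siRNA than on the plasmid arrays (adjusted p = 0.00753).

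Among 7 tested corepressors and partners, 0 passed by limma for siRNA against the negative control (2 at an unadjusted p under 0.05) and Hdac3, a histone deacetylase, fell on pcDNA3.1 (-0.69, adjusted p = 0.0392). The 9 tested glucocorticoid response genes held 0 calls for siRNA against the negative control (median 0.34, 2 at an unadjusted p under 0.05). The Klf15 targets held 0 of 8 there (median -0.01, 1 at an unadjusted p under 0.05). Against the plasmids, 2 glucocorticoid genes fell: Mt2, a metallothionein (-0.81, adjusted p = 0.0477), and Cebpd (-0.46, adjusted p = 0.0393). Of the Klf15 targets, Ppargc1a, a regulator of mitochondrial genes, was lower (-1.09, adjusted p = 0.00950) and so was Prodh, of proline breakdown (-0.87, adjusted p = 0.0121), while Pdk4, which restrains glucose oxidation, was higher (0.71, adjusted p = 0.0195). Ppargc1a was also 1.30 higher on pcDNA3.1 than on the negative control (adjusted p = 0.0116). Between the plasmid groups, 0 of 44 genes of these 6 lists passed by limma, and 3 had an unadjusted p under 0.05. Against the plasmids, Mt2 and Cebpd did not pass under median centring (-0.58 and -0.23), with the replicate block (adjusted p = 0.0826 and 0.0766) or with no filter on dim probes (0.0730 and 0.0808), Prodh and Pdk4 did not under normexp (-0.46 and 0.47), and Sp8 did not as the mean of its probes (-0.61). Sp6 and Hdac3 on pcDNA3.1 did not pass under normexp (-0.52 and -0.56), nor Hdac3 with no filter (0.0678). Leaving out 1 sample raised the adjusted p against the plasmids to as much as 0.147 for Mt2 and 0.166 for Cebpd (any plasmid or siRNA sample), 0.0613 for Prodh (a pcDNA3.1-MEG3 sample) and 0.0856 for Pdk4 (any plasmid sample or siRNA replicate 2). On pcDNA3.1 it rose to 0.185 for Hdac3 (any plasmid sample) and 0.0902 for Ppargc1a (pcDNA3.1 replicates 1 and 3). With only the compared groups in the fit, Npnt, Mef2a and Sp3 did not pass for siRNA against the negative control (adjusted p of 0.153 to 0.215).

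**Figure D4:**
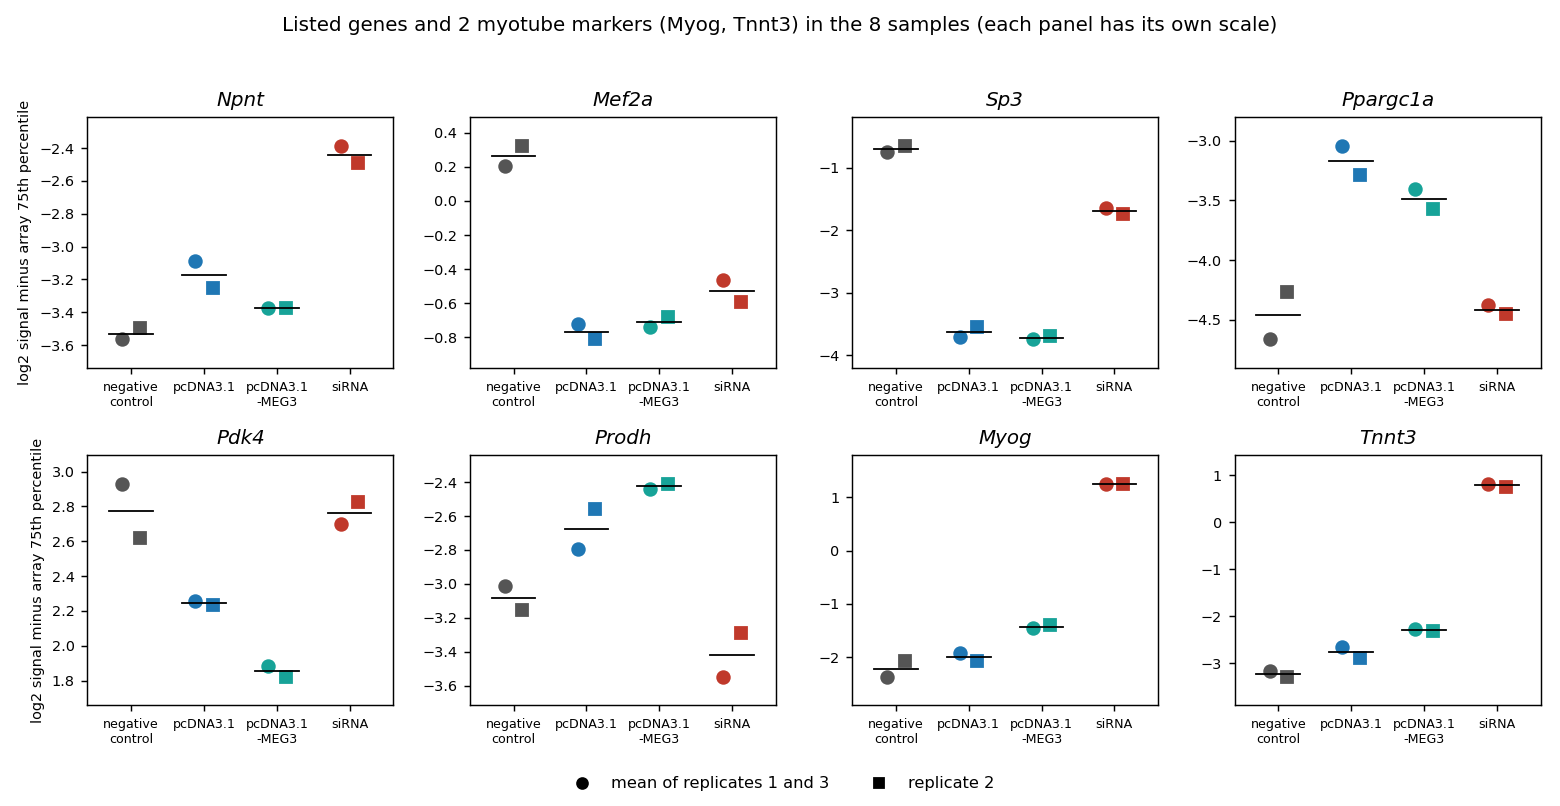
Log2 signal minus the array's 75th percentile (y axis) in the 8 samples by group (x axis) for 6 listed genes and the myotube markers Myog and Tnnt3. Circles are the mean of replicates 1 and 3, squares replicate 2 and bars their mean; Npnt, Myog and Tnnt3 are highest in the siRNA samples.

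Over the 8 samples, the genes with a symbol most like Klf2 were Pmaip1 (Pearson r = 0.995) and Mfsd2a (0.995), and those most like Klf5 were Pdgfd (0.995) and Sdhaf1 (0.992). Klf4 was most like Mfsd1 (0.997) and Hsph1 (0.992), and Klf15 most like H13 (0.994) and Phrf1 (0.988). These values describe 8 samples that share 4 groups and 3 slides, and were the highest of many. The myotube markers were higher on siRNA arrays, as Klf2 and Klf5 were. On pcDNA3.1 arrays, where Klf2 was also higher than on the negative control, 1 of the 7 passed (Ckm, 1.16). There, 5 of the 7 had an unadjusted limma p under 0.05, as had 8676 of 24200 genes. The median log2 difference of the 7 was 0.91, against 0.22 over all genes.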

How the data were processed

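Members and lists were chosen with earlier results of these data known. C2C12 RNA was hybridised to 12 single-colour Agilent arrays. Per the file headers, the authors extracted spot intensities on a linear scale in Feature Extraction 11.0.1.1 of Agilent, a program that subtracts background, and other columns hold flags of 0 or 1. The scaling of the deposited series values, also a processed intensity, is not stated in those headers. Array annotation is of mouse build mm9, so no coordinates of probes are printed. Probes were named through RefSeq accessions, 27234 of 39429 with a symbol.

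Spots marked as outliers were left out, spots of a probe averaged, and log2 processed signals scaled by subtracting the array's 75th percentile. A probe was kept if some group had it well above background on all its arrays (29603 probes), and the brightest probe stood for a gene, if it had a value in all 8 samples (24200 genes). No spot was saturated (0). Averaging to 8 samples was set with earlier results known and checked again. Limma 3.58.1 in R 4.3.3 (data.table package version 1.17.8) fitted a mean per group to 8 samples (lmFit, eBayes; degrees of freedom, 4 residual and 1.9 prior; two-sided), with Benjamini-Hochberg adjustment over all genes and calls at an adjusted p under 0.05. The number of arrays limits the precision. Members were all named; from each pathway list, up to 4 called genes with the largest difference were named per comparison, and for each called member the 2 most correlated genes. Replicate numbers did not pair samples: deviations of same-numbered arrays correlated at -0.0738 to 0.0364 between groups. The alternatives tried concerned the samples, the replicate block, the groups in the fit, the scaling, the background, the filter, the probes of a gene, the deposited series values, the scan and samples left out. Spots lacked a mean signal, so the normexp alternative (offset 50) used the median signal, and left out of its fit the 21 spots, summed over arrays, whose local background exceeded their own signal. A listed gene and its list are not reported here.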

Additional observations from a re-analysis of the deposited data

How the results depend on the processing

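Of the 147 values of called members under an alternative, 0 changed sign, 99 stayed called and 48 did not. Of 750 values of all members, 26 changed sign, each in a member and comparison not called as reported. In the other direction, 67 values of members not called as reported were called under an alternative. That number includes fits with 1 sample left out. Taking 12 arrays as 12 samples gave 5, 4, 6 and 5 called members (9792, 3012, 11977 and 12680 genes) for siRNA against negative control, pcDNA3.1-MEG3 against pcDNA3.1, pcDNA3.1 against negative control and siRNA against both plasmid groups, but counts scans as samples. With only the compared groups in the fit there were 0, 2, 1 and 7 members, and 162, 1932 and 9322 genes where the count moved by over 1.5 times. With plasmid replicates averaged to 1 sample a group, chosen after seeing the data, there were 0 members in each, and 162, 0, 2 and 200 genes. The replicate block left 1 member for pcDNA3.1 against negative control, and 1861 and 1 genes in the first 2 comparisons. The same-numbered samples are not paired, and it changed no other count by that much. Without a filter on dim probes, 1 member was called for pcDNA3.1 against negative control and 1973 genes for siRNA against negative control. The scan as a random block with 12 arrays gave 7 members and 14228 genes in the first comparison, although its estimated correlation was -0.321. Between the plasmid groups, the first scan alone gave 2 members and 1765 genes, and 6 arrays with the scan as a block 5 members and 10927 genes. There, quantile normalisation called 9 genes, normexp 19 and the values in the authors' series table called 10. Leaving out each sample in turn gave 1 to 7, 0 to 3, 0 to 8 and 1 to 7 members (1032 to 7380, 0 to 2399, 522 to 9042 and 1679 to 9322 genes) in the 4 comparisons. The high ends came without a negative control sample. A lone sample is then assumed to vary like the other groups.

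These differences changed sign. For siRNA against negative control, median centring gave -0.049 for Klf9 and -0.11 for Klf13, normexp 0.035 for Klf4 and -0.039 for Klf13, and the deposited series values -0.013 for Klf13. Leaving out samples gave ranges of -0.47 to 0.072 for Klf3, -0.0057 to 0.28 for Klf9 and -0.36 to 0.53 for Klf13, with both ends from a negative control sample left out. For pcDNA3.1-MEG3 against pcDNA3.1, Klf4 gave 0.0497 (median centring), 0.093 (quantile), 0.056 (normexp) and 0.098 (series values), and Klf15 -0.017 (normexp). Leaving out samples gave -0.035 to 0.021 for Klf4 and -0.044 to 0.19 for Klf10. For pcDNA3.1 against negative control, median centring gave -0.069 for Klf4, -0.27 for Klf5 and -0.39 for Klf7, and 12 arrays 0.11 for Klf13. Leaving out samples gave -0.51 to 0.038 for Klf3, -0.31 to 0.67 for Klf5, -0.093 to 0.20 for Klf7 and -0.49 to 0.39 for Klf13. For siRNA against both plasmid groups, median centring gave 0.0032 for Klf13. The cause was not tested.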
